A study of Homo sapiens with 6 samples.

Results

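The keratins are the proteins of the intermediate filaments of epithelial cells, and 48 of their genes were measured among the 18404 genes of this series. Members were taken from the platform annotation as genes whose symbol is KRT followed by digits and at most 1 letter, without keratin-associated protein genes and pseudogenes. They had 49 probe sets, KRT18 being the gene with more than 1, for which the brighter probe set was used. The cells were PrEC, an immortalized line of normal prostate epithelium grown in prostate epithelial medium and collected 48 hours after plating. The reference group, shNT, and the group with a hairpin against PKCλ/ι, titled shPKCi, had 3 samples each, 1 array per sample, described by the submitters as biological replicates. PKCλ/ι is the atypical protein kinase C encoded by PRKCI. The labels (shPKCl/i there) give neither the hairpin sequences nor whether a line is a clone, and an effect of the hairpin and a property of the line cannot be told apart. The comparison asks which keratin transcripts differ between the lines.

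Each keratin filament is built from pairs of 1 type I (acidic) and 1 type II (basic) chain, and most epithelia express characteristic partners. KRT5 with KRT14 or KRT15 marks the basal layer of stratified and prostate epithelium, KRT8 with KRT18 and KRT7 with KRT19 mark simple and luminal epithelium, and KRT1 with KRT10 and KRT4 with KRT13 mark the upper layers of epidermis and of mucosa. KRT16 is induced in activated and wounded epidermis. Hair keratins build the hair shaft and its sheaths. Of 55 keratin genes placed in classes, 7 were not analysed here, namely KRT6A, KRT6B, KRT6C, KRT17, KRT81, KRT82 and KRT86. The measured genes comprised 3 basal, 6 simple, 15 stratified, 14 hair shaft and 9 inner root sheath or companion layer keratins, and KRT222, which was left unclassed. Placing KRT23 with the simple keratins is a convention, since its tissue pattern is less settled.

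Most keratins that differed were type I genes, and those were lower in shPKCi except for KRT34. KRT16 fell 2.49-fold and KRT13 fell 2.06-fold. KRT14, KRT15, KRT19 and KRT23 fell by smaller amounts, between 1.25-fold and 1.44-fold. The hair shaft gene KRT34 rose 1.55-fold and the companion layer gene KRT75 rose 1.49-fold. In total 2 keratins were higher and 6 lower (limma, Benjamini-Hochberg adjusted p under 0.05 over all genes), against 9.55% of all genes higher, 8.95% lower and 18.5% in either direction. The share of keratins past the threshold was 16.7%, near the background. The median log2 fold change of the 48 was -0.04 and that of all genes was -0.02. Groups did not overlap in 13 keratins, or 27.1%, against 35.7% of all genes.

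**Figure D1:**
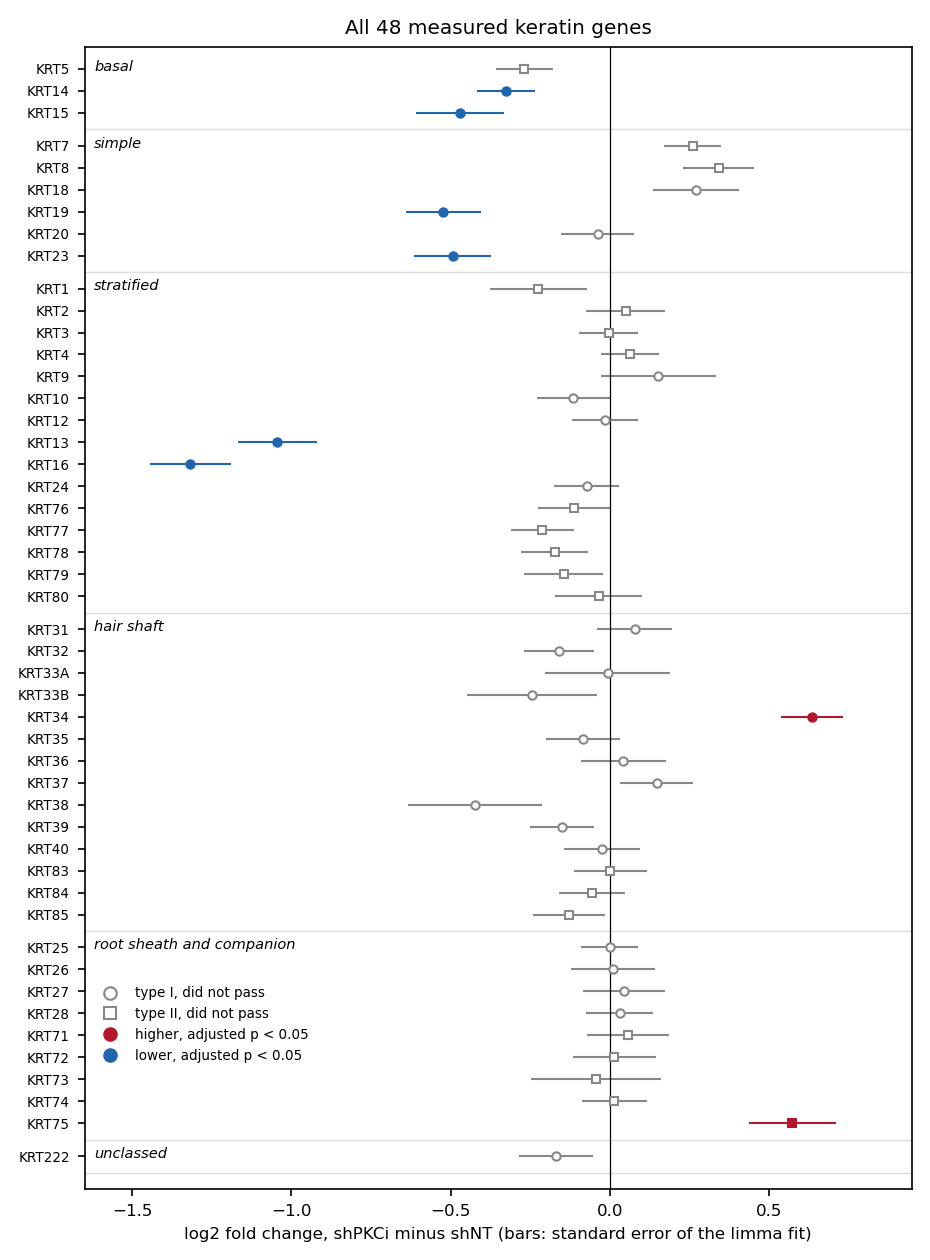
Log2 fold change (shPKCi minus shNT, x axis) of each of the 48 measured keratin genes, with the standard error of the limma fit as bars, grouped by class; circles are type I and squares type II genes, and filled symbols passed an adjusted p of 0.05. The 6 genes to the left in colour are all type I, and KRT34 and KRT75 are the 2 to the right.

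The array of shNT replicate 2 stood apart, with correlations to the other arrays between 0.974 and 0.989, while the other arrays reached 0.996 with their closest array. Without it, 5 keratins were higher and 6 lower (all genes: 1935 and 1959). Omitting shNT replicate 1 left 2 higher and 3 lower (all genes: 1480 and 1257). Omitting shNT replicate 3 left 1 and 4 (all genes: 1399 and 1245). Omitting the shPKCi arrays in turn left 2 and 2, then 1 and 2, then 1 and 4. The counts of all genes in these 3 fits were 1072 and 1057, then 997 and 1048, then 1165 and 1191. With all arrays, 1758 genes were higher and 1648 lower. KRT16, KRT13 and KRT34 passed in all 6 of these fits. The targeted transcript, PRKCI, had intensities of 1635, 1428 and 1843 in shNT and of 800.3, 810.2 and 753.8 in shPKCi. Array signal has no detection call here, so the 360 measured olfactory receptor genes, which are seldom transcribed outside the nose, were used to mark a dim level. Their mean log2 signals had a 95th percentile of 5.04 and a 99th percentile of 5.83. Of the keratins, 26 lay above the former and 16 above the latter, and the 8 genes past the threshold were among the 26. Probes differ in how well they bind, so this level sorts keratins into dim and brighter ones and does not rank them.

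Among the basal keratins, KRT14 and KRT15 fell and KRT5 did not pass. KRT14, the type I partner of KRT5 in basal cells, had intensities of 1643, 1533 and 1499 in shNT replicates 1 to 3 and of 1239, 1210 and 1279 in shPKCi replicates 1 to 3. The lowest shNT array thus lay above the highest shPKCi array. Its log2 fold change was -0.33 (SE 0.09, limma adjusted p = 0.0356). KRT14 no longer passed after median centring of the arrays (adjusted p = 0.0747). Of the 6 fits that omit an array, it passed in 1, that omitting shNT replicate 2 (adjusted p = 0.0274).

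KRT15, a type I keratin of basal cells and hair follicle stem cells, was at 46.6, 52.9 and 39.3 in shNT and 32.4, 29.6 and 38.0 in shPKCi. The groups did not overlap, but the lowest shNT array and the highest shPKCi array were 39.3 and 38.0. On the log2 scale KRT15 fell by 0.47 (SE 0.14, adjusted p = 0.0407). Centring gave an adjusted p of 0.0505, and the range over the 6 fits without an array was 0.026 to 0.16, with 0.0811 without shNT replicate 2. Its mean log2 signal, 5.29, lay between the 95th and the 99th percentile of the receptor genes.

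KRT5, the type II chain of basal cells, was at 4519, 4223 and 4430 in shNT and at 3614, 3699 and 3623 in shPKCi. All 3 shPKCi arrays were below all 3 shNT arrays. The log2 fold change was -0.27 (SE 0.09, adjusted p = 0.0682), outside the threshold. It passed in 5 of 14 alternatives, among them the fit without shNT replicate 2 (adjusted p = 0.0333) and cyclic loess (adjusted p = 0.0173, with -0.38). The 3 basal genes had a median of -0.33.

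**Figure D2:**
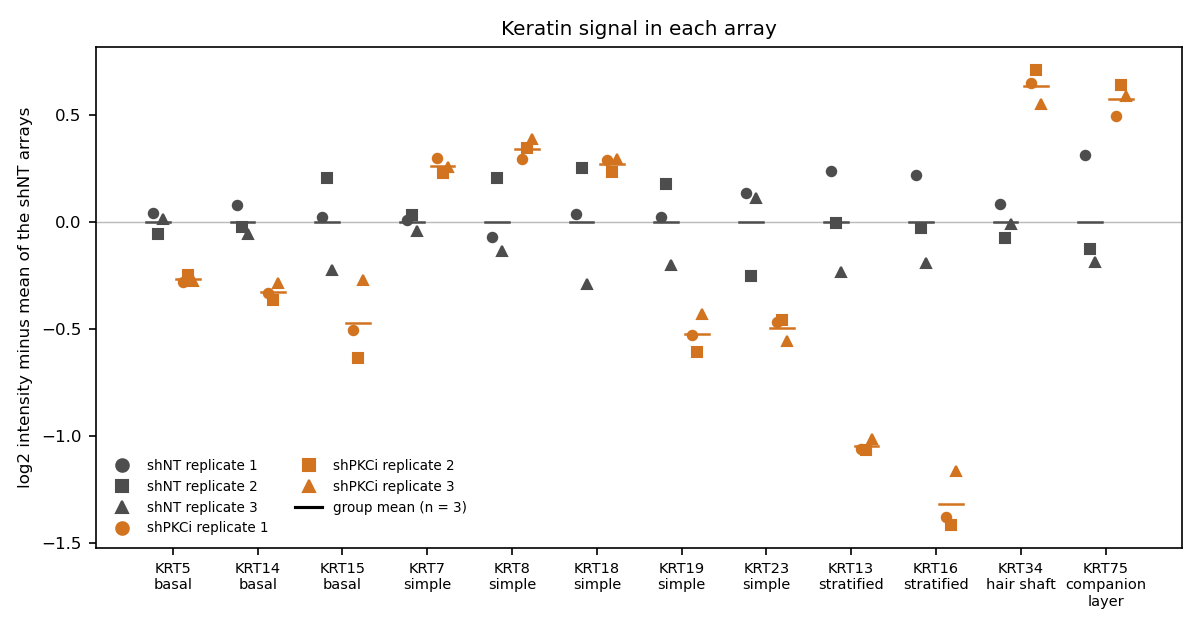
Log2 intensity in each of the 6 arrays relative to the mean of the shNT arrays (y axis) for 12 keratins (x axis, with their class); symbols mark the replicate, colours the group, and horizontal lines the group means. KRT13 and KRT16 lie more than 1 log2 unit lower in shPKCi on average, KRT34 and KRT75 lie above 0 in each shPKCi array, and KRT18 overlaps between the groups.

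The simple keratins went apart: KRT19 and KRT23 fell, while KRT7, KRT8 and KRT18 had positive values that did not pass. KRT19, the smallest keratin and a type I chain of simple and luminal cells, gave 1320, 1469 and 1128 in shNT and 900.7, 851.4 and 963.2 in shPKCi. The groups were separate. The log2 fold change of KRT19 was -0.52 (SE 0.12, adjusted p = 0.0131). Omitting shPKCi replicate 1 took the adjusted p to 0.0507, and omitting shPKCi replicate 2 took it to 0.0646.

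KRT23, a type I keratin, gave 960.1, 733.7 and 944.5 in shNT and 631.1, 636.5 and 594.7 in shPKCi. The shNT replicate 2 array was the lowest of its group and still above every shPKCi array. KRT23 fell by 0.49 (SE 0.12, adjusted p = 0.0195). Without shNT replicate 2 the fall was 0.62 (adjusted p = 0.00155). In the other 5 fits with an array left out it did not pass, the highest adjusted p being 0.0725.

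KRT8, the type II chain first made in embryonic and simple epithelium, gave 938.3, 1137 and 897.0 in shNT and 1209, 1251 and 1290 in shPKCi. Each shPKCi array was above each shNT array, and shNT replicate 2 was the closest to them. The log2 fold change was 0.34 (SE 0.11, adjusted p = 0.0624). Without shNT replicate 2 it was 0.45 (adjusted p = 0.00698), and median centring gave 0.40 (adjusted p = 0.0251), while cyclic loess gave 0.25 (adjusted p = 0.257).

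KRT7, a type II chain of glandular epithelium, was at 1625, 1649 and 1568 in shNT and at 1987, 1891 and 1926 in shPKCi. These groups were separate by more than the range within either. Its log2 fold change was 0.26 (SE 0.09, adjusted p = 0.0741), 0.28 without shNT replicate 2 (adjusted p = 0.0465) and 0.32 after centring (adjusted p = 0.0357). With cyclic loess it was 0.16 (adjusted p = 0.319), and KRT7 passed in 5 of 14 alternatives.

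KRT18, the type I partner of KRT8, gave 1102, 1276 and 876.7 in shNT and 1309, 1262 and 1314 in shPKCi, so that the groups overlapped through shNT replicate 2. Its log2 fold change was 0.27 (SE 0.13, adjusted p = 0.218), and 0.40 without that array (adjusted p = 0.0361). It was 0.13 without shNT replicate 3 (adjusted p = 0.527) and 0.18 with cyclic loess (adjusted p = 0.513), and it passed in 2 of 14 alternatives. The dimmer probe set of KRT18 gave 0.33 (SE 0.11, adjusted p = 0.074 over all probe sets). KRT18 has many processed copies in the genome that can share its probes. KRT20, a keratin of intestinal and urothelial surface cells, had a log2 fold change of -0.04 at a mean log2 signal of 3.94, within the dim range. The 6 simple keratins had a median of 0.11, with 3 values above and 3 below 0. Omitting shNT replicate 3 took this median to 0.047 and omitting shPKCi replicate 1 took it to 0.062.

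Of 15 stratified keratins, 2 fell, none rose and 13 did not pass. That is 13.3% lower, beside 8.95% of all genes. At an unadjusted limma p under 0.05 the number remained 2, while 5473 of 18404 genes had such a p. KRT16, the type I keratin of activated epidermis, gave 592.9, 498.8 and 445.6 in shNT and 195.7, 191.0 and 227.6 in shPKCi. The lowest shNT array was well above the highest shPKCi array. The mean log2 signal went from 8.99 ± 0.21 to 7.67 ± 0.14 (SD, n = 3), a log2 fold change of -1.32 (SE 0.13, limma adjusted p = 0.000143). KRT16 alone among the keratins also passed a test against a fold of 1.5 (treat, adjusted p = 0.0107). It has near-identical pseudogenes that can share its probes, and its usual partners, the KRT6 genes, were not analysed here.

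KRT13, the type I keratin of the upper layers of mucosa and of intermediate prostate cells, gave 378.7, 319.8 and 272.7 in shNT. In shPKCi it gave 154.1, 153.6 and 159.0, a narrow range below all shNT arrays. The mean log2 signal went from 8.33 ± 0.24 to 7.28 ± 0.03 (SD, n = 3), and KRT13 fell by 1.04 (SE 0.12, adjusted p = 0.000478). Its type II partner KRT4 had 58.7, 55.8 and 57.1 in shNT and 58.0, 58.6 and 62.9 in shPKCi, with a log2 fold change of 0.06 (adjusted p = 0.717). The groups of KRT4 overlapped, and its mean log2 signal, 5.87, was close to the 99th percentile of the receptor genes.

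The cornifying pair did not pass, and its values leaned on single arrays. KRT1 lay between 17.9 and 28.4 (log2 fold change -0.22, SE 0.15, adjusted p = 0.382), within the dim range, and gave -0.044 without shPKCi replicate 3. KRT10 lay between 53.7 and 71.8 (log2 fold change -0.11, SE 0.12, adjusted p = 0.586), above the dim range, and gave -0.011 without shPKCi replicate 1. KRT9, the keratin of palms and soles, had 0.15 (SE 0.18), and -0.079 without shNT replicate 2, its lowest array. The smallest adjusted p among the stratified keratins that did not pass was 0.191, that of KRT77, at 38.1, 38.4 and 38.4 in shNT and 32.1, 36.5 and 31.0 in shPKCi. The median of the 15 genes was -0.11, with 12 of them below 0, where the median of all genes was -0.02 and 9755 of 18404 genes were below 0.

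Hair keratins passed about as often on the higher side as all genes did. Of 23 hair shaft, inner root sheath and companion layer genes, 2 rose, KRT34 and KRT75, none fell and 21 did not pass, and at an unadjusted limma p under 0.05 it was again 2. That is 8.70% higher, beside 9.55% of all genes. KRT34, a type I keratin of the hair cortex, gave 54.7, 49.1 and 51.4 in shNT and 80.9, 84.6 and 75.8 in shPKCi. The 6 arrays formed separate groups with a wide gap. KRT34 rose by 0.64 (SE 0.10, adjusted p = 0.00177), and its adjusted p was at most 0.014 when any array was left out.

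KRT75, a type II keratin of the follicle's companion layer, gave 60.8, 44.9 and 43.0 in shNT and 69.0, 76.3 and 73.6 in shPKCi. The nearest arrays of the 2 groups were shNT replicate 1 and shPKCi replicate 1. KRT75 rose by 0.57 (SE 0.14, adjusted p = 0.0172). Omitting shNT replicate 3 ended the call (adjusted p = 0.0632), as did omitting shPKCi replicate 2 (0.0707) or 3 (0.0565). Mean log2 signals were 6.01 for KRT34 and 5.90 for KRT75, not far above the 99th percentile of the receptor genes, 5.83.

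The neighbours and close relatives of KRT34 gave no such rise. KRT31 lay between 38.8 and 50.3 (log2 fold change 0.08, adjusted p = 0.726). KRT33A had -0.01 and KRT33B -0.24, with SE of 0.20 and 0.21. In KRT33A, shNT replicate 2 was lowest at 43.3, against 80.2 and 68.8 in the other shNT arrays. KRT38, the lowest of the hair shaft genes at -0.42 (adjusted p = 0.217), was at 38.4 in shNT replicate 2, against 21.4 and 22.3. Without KRT34 and KRT75, the 21 hair genes had log2 fold changes between -0.42 and 0.15 and a median of 0.00. KRT73 gave -0.04, the lowest of the root sheath genes, and KRT222 gave -0.17 (adjusted p = 0.39). A set of genes that accompany hair keratins, the keratin-associated proteins, had 68 measured members. Of these, 0 passed (limma adjusted p under 0.05), beside 18.5% of all genes. An unadjusted limma p under 0.05 was found for 4 of them and for 5473 of 18404 genes. Of the 68, 30 lay at or below the 95th percentile of the receptor genes, the dim range.

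The upstream sequences of KRT34 and of its neighbour KRT31 are shown because these related hair genes differed in whether they passed, and those of KRT75 and KRT5 because they lie near each other in the type II cluster and had opposite signs. Each is the 250 bases before the transcription start, 5′ to 3′ on the gene's strand, from RefSeq (GRCh38.p14). Capitals mark the letters ATAAA nearest to the start, the core of a TATA-like element.

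KRT34, chr17:41382307-41382556, minus strand: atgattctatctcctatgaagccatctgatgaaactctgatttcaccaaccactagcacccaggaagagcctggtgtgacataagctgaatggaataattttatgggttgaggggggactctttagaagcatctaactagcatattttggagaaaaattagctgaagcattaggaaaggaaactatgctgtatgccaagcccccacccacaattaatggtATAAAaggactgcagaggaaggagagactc

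KRT31, chr17:41397609-41397858, minus strand: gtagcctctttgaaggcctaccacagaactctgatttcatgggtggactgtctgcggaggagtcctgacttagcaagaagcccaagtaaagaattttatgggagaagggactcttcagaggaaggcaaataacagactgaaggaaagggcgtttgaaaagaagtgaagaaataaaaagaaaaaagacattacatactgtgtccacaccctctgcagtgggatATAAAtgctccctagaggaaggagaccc

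KRT75, chr12:52434372-52434621, minus strand: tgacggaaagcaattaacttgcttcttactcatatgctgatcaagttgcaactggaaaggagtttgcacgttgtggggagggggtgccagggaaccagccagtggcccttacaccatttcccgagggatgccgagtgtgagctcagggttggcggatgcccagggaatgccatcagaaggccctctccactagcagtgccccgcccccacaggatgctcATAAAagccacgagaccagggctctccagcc

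KRT5, chr12:52520395-52520644, minus strand: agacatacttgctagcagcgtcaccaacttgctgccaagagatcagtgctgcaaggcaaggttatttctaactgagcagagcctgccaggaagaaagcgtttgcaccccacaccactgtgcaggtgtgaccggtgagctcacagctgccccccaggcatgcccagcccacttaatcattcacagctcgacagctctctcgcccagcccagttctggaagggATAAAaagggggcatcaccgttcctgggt

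The capitals begin 30 bases before the start in KRT34, 28 in KRT31, 31 in KRT75 and 29 in KRT5. KRT34 and KRT31 shared 65.7% of 233 aligned bases in these windows, and KRT31 and KRT33A shared 78.6% of 238. Promoter sequences matched 33 of the 48 keratins. Of these, 24 (72.7%) held ATAAA on the gene's strand within the last 50 bases, against 6.51% of 27305 promoters. TATAAA, searched on both strands of the 250 bases, was in 19 of 33 keratin promoters (57.6%) and in 11.1% of all. The GC box GGGCGG was in 12.1% of the keratin promoters and in 42.3% of all, CACCC in 75.8% and 53.7%, and the AP-1 letters TGANTCA in 0 of 33 and in 6.6% of all. TATAAA contains ATAAA, so that those searches overlap. KRT34 and KRT31 each held TATAAA and 2 copies of CACCC. These matches were much alike in the gene that rose and in the one that did not pass.

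The measured keratins that fell were of 1 chain type. Of the 7 keratins not analysed, all but KRT17 are type II, among them the KRT6 genes, so type II was covered less completely. Of 28 type I genes 6 fell and 1 rose, and of 20 type II genes none fell and 1 rose. The lower shares are 21.4% and 0%, beside 8.95% of all genes. The higher shares are 3.57% and 5%, beside 9.55% of all genes. At an unadjusted limma p under 0.05, KRT5 was the 1 type II gene on the lower side, and it passed in 5 of 14 alternatives as given above. The 4601 brightest genes held 9 keratins, of which 5 of 6 type I genes fell, and none of 3 type II genes passed. Of those 4601 genes, 34.0% passed, 13.45% lower and 20.5% higher. The difference between the chain types was not tested, since the members were chosen with earlier results known.

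Partner chains were compared within arrays, as the type II minus the type I log2 change. For KRT5 and KRT14 the difference of the log2 changes was 0.06 (two-sided exact permutation p = 0.3). For KRT8 and KRT18 it was 0.07 (exact p = 0.5), and for KRT5 and KRT15 it was 0.20 (exact p = 0.5). For KRT7 and KRT19 it was 0.78 and for KRT4 and KRT13 it was 1.11, each with an exact permutation p = 0.1, the smallest that 3 arrays against 3 allow, and 0.35 adjusted over the 7 pairs. In these last 2 pairs, KRT19 and KRT13 were lower against their partners in all shPKCi arrays than in any shNT array. The mean log2 signal of KRT4, 5.87, was close to the 99th percentile of the receptor genes, 5.83. That of KRT15, 5.29, was below this percentile. The log2 changes of KRT4 and KRT13 were 0.06 and -1.04. KRT1 with KRT10 gave -0.11 and KRT3 with KRT12, the corneal pair, 0.01 (exact permutation p = 1 for each). KRT1 and KRT12 were within the dim range, with mean log2 signals of 4.63 and 3.79, and KRT3, at 5.21, was near it. Their ratios therefore say little about the balance of partners.

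Most type I genes lie in 1 cluster on chromosome 17, and the type II genes with KRT18 in another on chromosome 12. In RefSeq order, the measured genes at 1 end of the first cluster are KRT13, KRT15, KRT19, KRT9, KRT14 and KRT16. Of these 6, 5 fell, KRT9 being the exception, while 8.95% of all genes were lower. The start of this stretch at KRT13 was set with results of these data known. KRT13, KRT14, KRT16 and KRT19 were among the 4601 brightest genes, of which 13.45% were lower. An effect of position was not tested. In the remaining 21 measured genes of the chromosome 17 cluster, KRT23 fell and KRT34 rose. The chromosome 12 cluster had 21 measured genes, of which KRT75 passed. The share of all genes that passed in either direction was 18.5%.

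**Figure D3:**
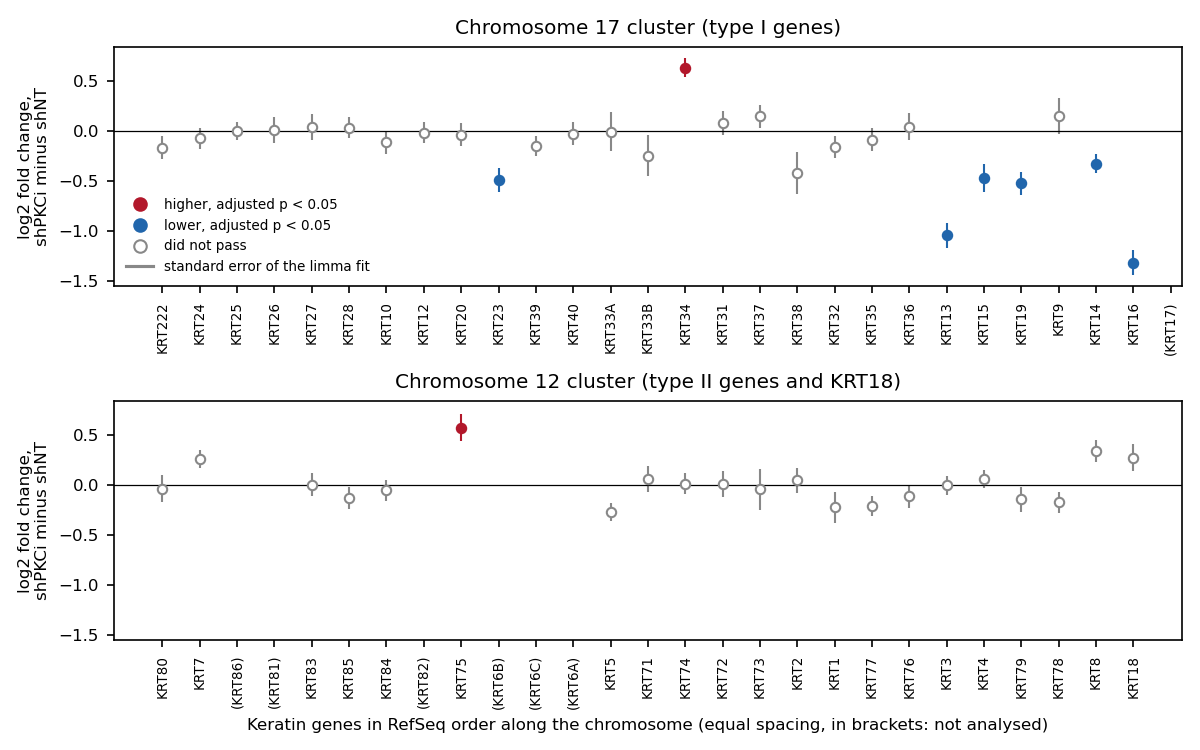
Log2 fold change (shPKCi minus shNT, y axis) with the standard error of the limma fit for keratin genes in RefSeq order along chromosomes 17 and 12 (x axis, equal spacing, names in brackets were not analysed). The 5 lower genes from KRT13 to KRT16 stand next to each other but for KRT9.

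Among genes whose proteins bind keratins, several of the desmosomal plaque fell and others did not pass. These genes, and the next lists, were chosen with results of these data known. Of 17 measured linkers, binding proteins and chaperones, 6 fell, 2 rose and 9 did not pass. These are 35.3% lower and 11.8% higher, beside 8.95% and 9.55% of all genes. The median was -0.18, and 5 were lower after median centring. DSP, the desmoplakin that ties keratins to desmosomes, gave 3696, 3461 and 4141 in shNT and 2206, 2335 and 2171 in shPKCi. Its fall was 0.75 (SE 0.10, adjusted p = 0.000993). All shPKCi arrays of DSP lay far below the shNT arrays. The desmosomal plaque gene PKP1 fell by 0.68, the epiplakin gene EPPK1 by 0.76 and the periplakin gene PPL by 0.59, with adjusted p between 0.0019 and 0.00735. JUP (plakoglobin) and SFN (14-3-3 sigma, which binds keratins) also fell, by 0.49 and 0.36. PNN rose by 0.42 and TCHP, a keratin-binding protein gene, by 0.36 (adjusted p = 0.0482). PLEC, the plectin gene, had -0.12 (adjusted p = 0.529). The plaque genes PKP2 and PKP3 did not pass, with 0.06 (adjusted p = 0.745) and -0.21 (adjusted p = 0.255). EVPL did not pass either, with -0.20 (adjusted p = 0.255).

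Transcription factors of keratinocyte differentiation included ZNF750 and PRDM1, which fell most. Of 17 measured members 9 fell, none rose and 8 did not pass, or 52.9% lower beside 8.95% of all genes; 11 had an unadjusted p under 0.05. The median was -0.51. ZNF750, a regulator of terminal epidermal differentiation, gave 360.1, 342.7 and 401.3 in shNT and 126.1, 119.2 and 92.7 in shPKCi. ZNF750 fell by 1.72 (SE 0.13, adjusted p = 3.57e-05). PRDM1 fell by 1.35, GRHL1 by 0.84 and GRHL3 by 0.74, and these genes had separate groups as well. KLF4, KLF5, OVOL1, GATA3 and MAF fell by 0.78, 0.51, 0.96, 0.68 and 1.03. GRHL2, EHF and SOX9 did not pass, with log2 fold changes of -0.08, 0.01 and -0.02. Of 5 hair follicle factors, DLX3 fell by 0.37 (adjusted p = 0.0466), a call lost after median centring, and the others did not pass.

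Of 15 other intermediate filament genes, from vimentin to the lamins, 1 passed the threshold, on the higher side. That is 6.67%, beside 9.55% of all genes higher and 18.5% in either direction. NEFM, a neurofilament gene, rose by 0.49 (adjusted p = 0.026) at signals of 29.9 to 51.6. VIM, the mesenchymal filament gene, had -0.24 (SE 0.09, adjusted p = 0.105), with 703.0, 736.4 and 709.9 in shNT and 623.2, 615.6 and 584.4 in shPKCi. The groups of VIM did not overlap. LMNA gave -0.04 and LMNB1 -0.13. INA, an internexin gene, had the highest log2 fold change, 0.68, with groups that overlapped (adjusted p = 0.0616). The median of these genes was 0.01.

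**Figure D4:**
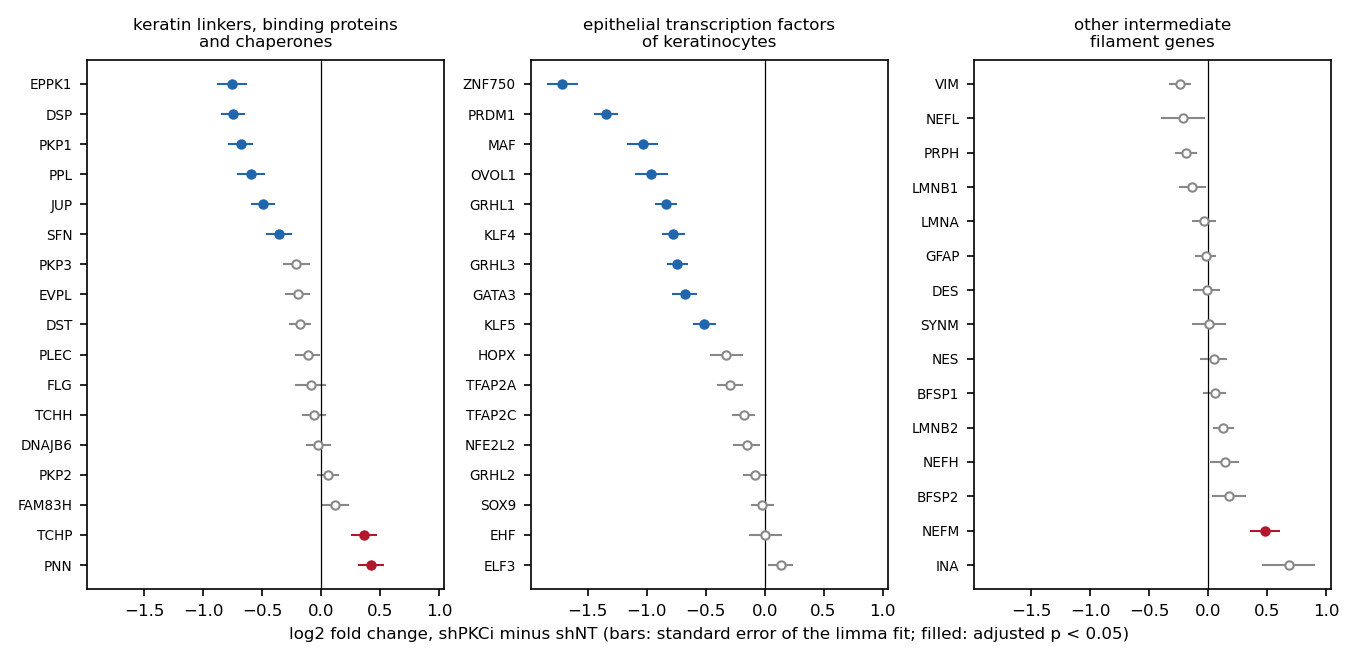
Log2 fold change (shPKCi minus shNT, x axis) with the standard error of the limma fit for measured members of 3 gene lists; filled symbols passed an adjusted p of 0.05. Filled symbols lie on the lower side for 6 linkers and 9 transcription factors and on the upper side for 2 linkers and NEFM.

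The 8 measured epithelial markers had mean signals above the 99th percentile of the receptor genes. Of these, EPCAM rose by 0.60, and CDH3 and ITGB4 fell by 0.62 and 0.45. Their summed intensity ran from 13040 to 16020 in shNT and from 14020 to 15150 in shPKCi. In bulk RNA, fewer cells of a kind and less RNA per cell cannot be told apart. Of luminal prostate markers 4 of 7 were measured and none was above the 99th percentile of the receptor genes. ACP3 fell by 1.02 (adjusted p = 0.00127), and the list's sum was 123.2 to 166.5 in shNT and 97.5 to 108.5 in shPKCi. Fibroblast markers summed to 302.4 to 375.4 in shNT and to 256.3 to 277.4 in shPKCi, with COL1A1 lower by 0.49 (adjusted p = 0.0244). Of the 7 fibroblast markers, 4 were above the 95th and 2 above the 99th percentile of the receptor genes, while LUM and DCN lay at 6.86 to 9.06 and 7.95 to 9.98. Of endothelial markers 0 of 5 and of melanocyte markers 0 of 3 were above the 95th percentile, while blood cell markers reached it in 2 of 5 genes and neuroendocrine markers in 1 of 5. KDR fell by 0.43 and CD3D rose by 0.34, both within the dim range. The sums ran from 99.8 to 113.4 in shNT and from 94.2 to 109.0 in shPKCi for endothelial, from 357.6 to 383.3 and from 328.0 to 343.3 for blood, from 60.2 to 63.5 and from 52.7 to 54.9 for melanocyte, and from 100.3 to 110.9 and from 106.4 to 116.4 for neuroendocrine markers. CD68, at 237.8 to 290.6 over the 6 arrays, made up most of the blood sums, while PTPRC lay at 7.03 to 7.71. The part of these lists in the keratin values was not tested.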

How the data were processed

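RNA of 6 samples was hybridised to 1 array each, and the authors deposited probe set intensities on a linear scale. RMA is named in the submitters' processing notes (version and build: not given in the sources used here). Since RMA output is usually log2, the linear scale implies a step that no source describes. The deposited intensities were transformed to log2. Samples were grouped by title. Of 32321 probe sets, 19158 had 1 gene symbol in the platform annotation, and the one with the highest mean stood for each of 18404 genes. No filter on low values was used. All genes were fitted in limma 3.58.1 (lmFit, eBayes) in R 4.3.3 with 5.52 prior degrees of freedom, and p-values were adjusted by Benjamini-Hochberg with a threshold of 0.05. The fit was checked on simulated data. The number of arrays limits the precision; the median standard error was 0.114. The keratin classes, lists, pairs and alternatives were chosen with earlier results of these data known. Named were keratins past the threshold or among the 4601 brightest genes, 15 chosen by symbol, of which KRT6A, KRT6B and KRT6C were not analysed, the highest and lowest of each class, and up to 4 members of each other list; further genes were named after their values were seen. Tried as alternatives were median centring, omission of each array, a block for the replicate number, cyclic loess, a signal filter, other choices of probe set, trended robust variance, array weights and treat.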

Additional observations from a re-analysis of the deposited data

How the results depend on the processing

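All genes' median moved from -0.02 to 0.04 when arrays were centred on their medians, and the keratins then split into 4 higher and 4 lower (all genes: 2170 and 1321). A trended robust variance gave 4 higher and 7 lower keratins (all genes: 1992 and 1794). Array weights gave 13 keratins past the threshold, 5 of them higher (all genes: 4657, of which 2321 higher). A test against a fold of 1.5 left 1 keratin, lower, and 0 higher, and 268 genes in all, 88 higher and 180 lower. With an array left out, 3 to 11 keratins passed, 1 to 5 higher and 2 to 6 lower, and of all genes 2045 to 3894, with 997 to 1935 higher and 1048 to 1959 lower. The median of the stratified keratins, -0.11, ran from -0.14 to -0.049 in those fits. It was -0.056 after centring, -0.069 after cyclic loess and -1.18 over the 2 stratified genes above the median signal, where the simple keratins gave 0.26. The basal median was -0.42 after cyclic loess. Centring gave 2 higher intermediate filament genes outside the keratins and 0 lower hair follicle factors. At the 99th percentile of receptor genes, 16 keratins counted as brighter. Deviations of same-numbered arrays from their group means had correlations of 0.121, -0.0579 and -0.183. With 3 arrays per group, these values cannot settle whether the numbers pair the samples. With a replicate block 6 keratins passed, 2 higher and 4 lower, KRT14 and KRT15 not among them. Of all genes 2978 then passed, 1537 higher and 1441 lower. KRT9, not past the threshold, ran from -0.079 (without shNT replicate 2) to 0.29 with an array left out. KRT73, likewise not past it, ran from -0.26 to 0.14 with an array left out and was 0.013 after centring and 0.23 with array weights. The other causes were not tested.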

Other observations

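Of 4 measured keratin pseudogenes 0 passed the threshold, beside 18.5% of all genes. So few genes say little about a share, and 3 of them lay at or below the 95th percentile of the receptor genes. KRT17P5 lay between 59.8 and 94.0 over the 6 arrays, and its groups overlapped (limma adjusted p = 0.172). Its parent gene, KRT17, was not analysed here. KRT18P55 and KRT18P59 overlapped as well, with adjusted p of 0.643 and 0.707, and stayed at or below 34.6 in each array. KRT8P41 lay between 25.6 and 30.04 and overlapped too (adjusted p = 0.964).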
